A study of Mus musculus with 6 samples.

Results

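The interferon-stimulated genes examined here are 35 mouse genes that cells switch on after interferon or viral nucleic acid reaches them. This set, like the pathway lists used later, was chosen with earlier results of these data known. Its counts set against all genes below therefore describe it and test nothing. The genes were matched by Ensembl identifier between the 2 gene lists used in the deposited matrices. All 35 were present on both lists, among 21485 shared genes, and 34 of them had enough counts to enter the test of 14512 genes. The cells were mouse muscle-derived stem/progenitor cells (MDSPCs), which adhere slowly when dissociated skeletal muscle is plated repeatedly. The young group held 3 populations from young mice and the old group 3 populations from old mice, each with 1 droplet-based 3′ single-cell library. Every population was grown on collagen in the same medium, DMEM with fetal bovine serum, horse serum and a little chick embryo extract, and no treatment was named. The labels give no age in months, sex, strain or count of mice per population, and all cells had been expanded in culture. The labels call the populations biological replicates, numbered 1, 2 and 3 within each group, and values below follow that order. Each label also carries a population code whose meaning is not given. The codes of old replicates 2 and 3 begin alike, and those of young and old replicate 1 differ in their first letter only.

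Interferons are secreted proteins that bind paired receptor subunits on the cell surface. The receptors act through JAK kinases and STAT proteins, and a complex that contains STAT2 and IRF9 binds promoter elements rich in repeated GAAA. The genes under such promoters encode sensors, enzymes and restriction factors that block viral entry, translation and release, and many cell types also keep a low level of some of them without added interferon.

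The series held 61673 cells after filtering, between 8674 and 12541 per population, with 133683424 to 196258384 unique molecular identifiers (UMIs) per population and a median of 13001 to 19951 UMIs per cell. Levels are given in CPM, the UMIs of a gene relative to all UMIs of the summed cells of a population, scaled by TMM. In such sums, fewer expressing cells and less RNA per expressing cell cannot be told apart. Young replicate 1 and old replicate 1 were counted on a shorter gene list than the other 4 populations. Across libraries, 437 cell barcodes occurred more than once, with 23 to 35 shared by any pair. The myogenic markers summed to between 143 and 1827 CPM in young against between 224 and 2616 CPM in old populations. Over the 6 populations Chrna1 ran from 62.2 to 1086 CPM, Myod1 from 42.3 to 963 CPM and Des from 2.48 to 455 CPM. Pax7 ran from 0.0245 to 55.5 CPM, Myf5 from 0.00883 to 53.3 CPM and Cdh15 from 5.78 to 86.8 CPM. The 5 fibro-adipogenic markers summed to between 260 and 333 CPM in young and between 177 and 316 CPM in old populations. That sum was nearly all Gsn (135 to 303 CPM over the 6 populations) and Col3a1 (12.8 to 132 CPM), while Pdgfra and Dcn, which define these cells, reached at most 1.88 and 1.58 CPM and Lum 0.00580 CPM. The 4 leukocyte markers summed to 0.467 to 1.16 CPM in young against 0.632 to 1.59 CPM in old populations. The 6 macrophage markers summed to 9.82 to 31.2 CPM and 6.32 to 26.1 CPM, most of it Cd14 (4.87 to 23.5 CPM) and Cd68 (1.09 to 8.65 CPM). Csf1r reached 3.15 CPM in young replicate 2 and at most 0.415 CPM elsewhere, and Adgre1, C1qa and Lyz2 stayed at or below 0.609 CPM. The T and NK cell, B cell, dendritic cell and endothelial lists each stayed at or below 1.47 CPM, with Siglech, a plasmacytoid dendritic cell marker, at 0 in every population.

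RefSeq promoter windows of 250 bases before to 50 after the gene start (GRCm38.p6) were found for 29 of the 35 genes. Dhx58, Usp18, Rtp4, Parp9, Parp14 and Ifi27 were not matched. The letters GAAA, any 2 bases and GAAA again, the core of the interferon-stimulated response element, occurred on either strand, overlapping copies allowed, in 16 of the 29 genes (55.2%) and in 3.99% of the 27025 genes with a window. The letters TTCNNNGAA, the core of the STAT-binding gamma-activated site, occurred by the same search in 10 of the 29 (34.5%) and in 9.55% of all genes. The stretches below are the 160 bases before the start, with letters that match this paired GAAA core on either strand in capitals. The first 4 belong to genes whose UMIs were concentrated in few cells, in 5 populations for Isg15 and Ifit1 and in 1 for Ifit3 and Rsad2 (described later), and the last 3 to the genes with no overlap between young and old populations. They lie at chr4:156200819-156200978 (minus strand) for Isg15, chr19:34640729-34640888 (plus) for Ifit1, chr19:34583369-34583528 (plus) for Ifit3, chr12:26456453-26456612 (minus) for Rsad2, chr11:88999243-88999402 (plus) for Trim25, chr11:101448252-101448411 (plus) for Ifi35 and chr5:114896774-114896933 (plus) for Oasl2.
Isg15: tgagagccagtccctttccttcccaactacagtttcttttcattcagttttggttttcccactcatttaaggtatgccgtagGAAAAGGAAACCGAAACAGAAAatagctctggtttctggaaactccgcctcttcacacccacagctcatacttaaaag
Ifit1: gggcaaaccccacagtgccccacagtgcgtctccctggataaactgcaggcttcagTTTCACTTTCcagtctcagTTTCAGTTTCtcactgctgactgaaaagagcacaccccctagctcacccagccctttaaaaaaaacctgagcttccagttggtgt
Ifit3: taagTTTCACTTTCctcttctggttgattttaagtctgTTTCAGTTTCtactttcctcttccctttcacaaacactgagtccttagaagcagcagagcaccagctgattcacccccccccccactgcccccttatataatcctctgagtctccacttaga
Rsad2: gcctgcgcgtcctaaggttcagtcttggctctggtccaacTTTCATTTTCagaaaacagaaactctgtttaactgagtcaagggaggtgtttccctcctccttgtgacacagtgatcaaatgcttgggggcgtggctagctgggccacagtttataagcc
Trim25: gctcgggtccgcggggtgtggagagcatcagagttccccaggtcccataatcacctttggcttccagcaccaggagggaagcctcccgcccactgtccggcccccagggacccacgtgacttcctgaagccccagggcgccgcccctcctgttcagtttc
Ifi35: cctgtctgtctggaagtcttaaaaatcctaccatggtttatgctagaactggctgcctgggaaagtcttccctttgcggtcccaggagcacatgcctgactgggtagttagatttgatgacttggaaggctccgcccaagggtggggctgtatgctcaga
Oasl2: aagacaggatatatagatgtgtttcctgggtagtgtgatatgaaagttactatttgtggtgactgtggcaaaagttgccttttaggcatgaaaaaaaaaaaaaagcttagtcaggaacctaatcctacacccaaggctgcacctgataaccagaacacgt
The capitals stand in all 4 of the first set and in none of the last 3, whose whole windows also held no paired GAAA core. The printed genes were picked for their results, so this contrast is no test. The paired GAAA core also stood in the windows of Ifitm2, Ifitm3, Bst2, Irgm1 and Eif2ak2, whose UMIs were not concentrated in few cells. The window of Ifi35 held 1 TTCNNNGAA core. A match or its lack describes these letters only and says nothing of binding.

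The comparison of old with young populations asked which interferon-stimulated genes differ with the age of the donor. None of the 34 genes tested passed edgeR's quasi-likelihood test at an adjusted p of 0.05, where 0.00689% of all genes (1 of 14512) passed, and the lowest adjusted p among the 34 was 1.00. At an unadjusted p under 0.05 in the same edgeR fit there were 2, Trim25 and Ifi35, both with old higher, against 3.53% of all genes (512) in either direction and 2.51% with old higher. That count of 2 was 0 without young replicate 2 or without old replicate 2, 1 without young or old replicate 3, and 6 without young or old replicate 1. Over all genes the same fits gave 644 of 14896 and 435 of 14861 without young or old replicate 2, 626 of 14952 and 383 of 14902 without replicate 3, and 1002 of 14927 and 998 of 14742 without replicate 1. In 3 genes, Oasl2, Trim25 and Ifi35, every old population was above every young one, where 3.63% of all genes had that pattern, and in 0 every old population was below every young one, where 2.42% had it (6.05% in either direction). The fitted log2 fold change (old over young) was above 0 in 24 of the 34 genes and below 0 in 10, against 48.9% above 0 among all genes. Its median was 0.60 over the 34 genes and -0.01 over all genes. Each population's median deviation of the 34 genes from their mean log2 level was also taken. It was 0.26, -0.53 and -0.22 in young against 0.57, 0.14 and -0.35 in old populations, which overlapped. The pooled SD within groups was 0.43. In 17 genes the fold change was smaller than its own standard error (SE), in 15 it lay between 1 and 2 SE, and in 2 it exceeded 2 SE. DESeq2 called 1 of the 34, Trim25, and 1.51% of all genes (219).

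**Figure D1:**
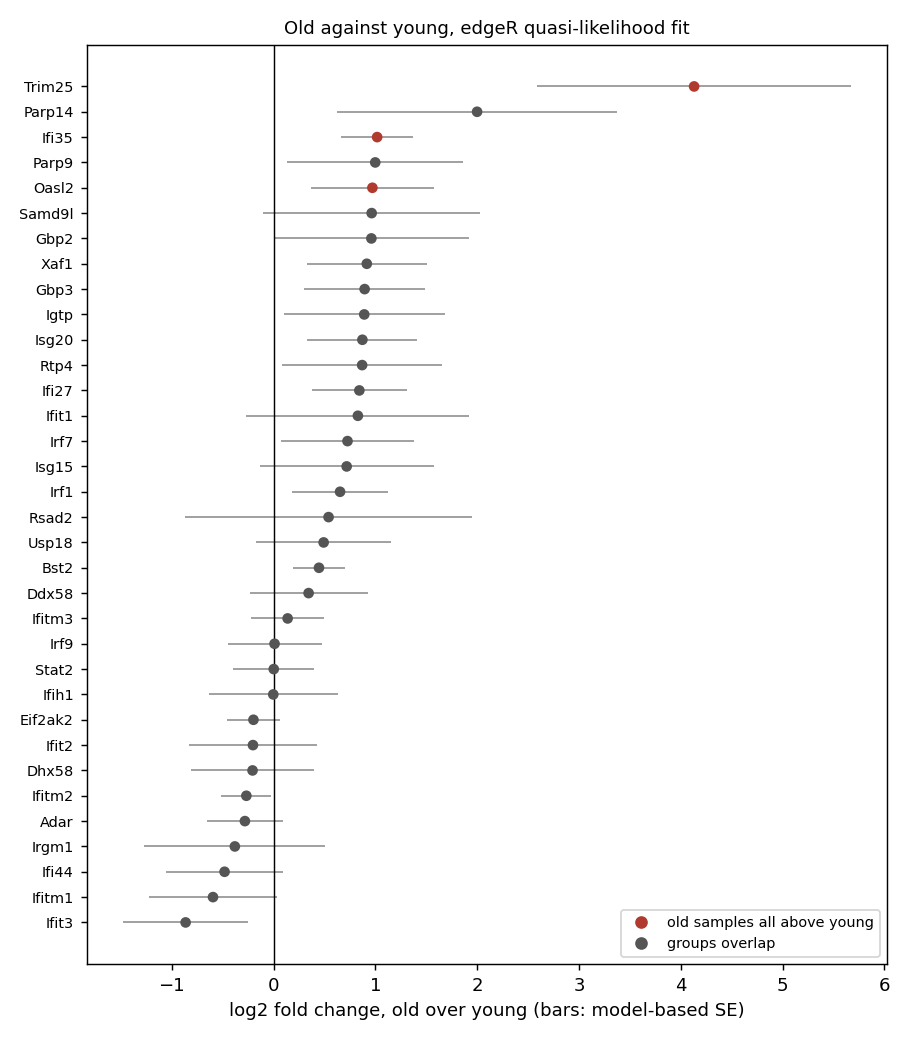
Log2 fold change of old over young for each of the 34 tested genes (points) with its model-based SE (bars), from the edgeR fit. Trim25 stands at 4.13 and Parp14 at 2.00, the 3 genes whose groups do not overlap are in red, and the bar crosses 0 in 17 genes.

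The members spanned a wide range of levels. On the CPM scale of 3′ counts, which tag each molecule near its end and were not divided by gene length, 2 genes averaged above 100 CPM, 7 between 10 and 100, 14 between 1 and 10, and 12 at 1 CPM or less. Of the summed CPM of the 35 genes, 87.5% belonged to Ifitm2 and Ifitm3. Oas1a, a maker of the oligoadenylates that switch on RNase L, had 0 counts in 5 populations and 2 in old replicate 1, which is within the 3 counts that a count of 0 allows, so no fold change is given.

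**Figure D2:**
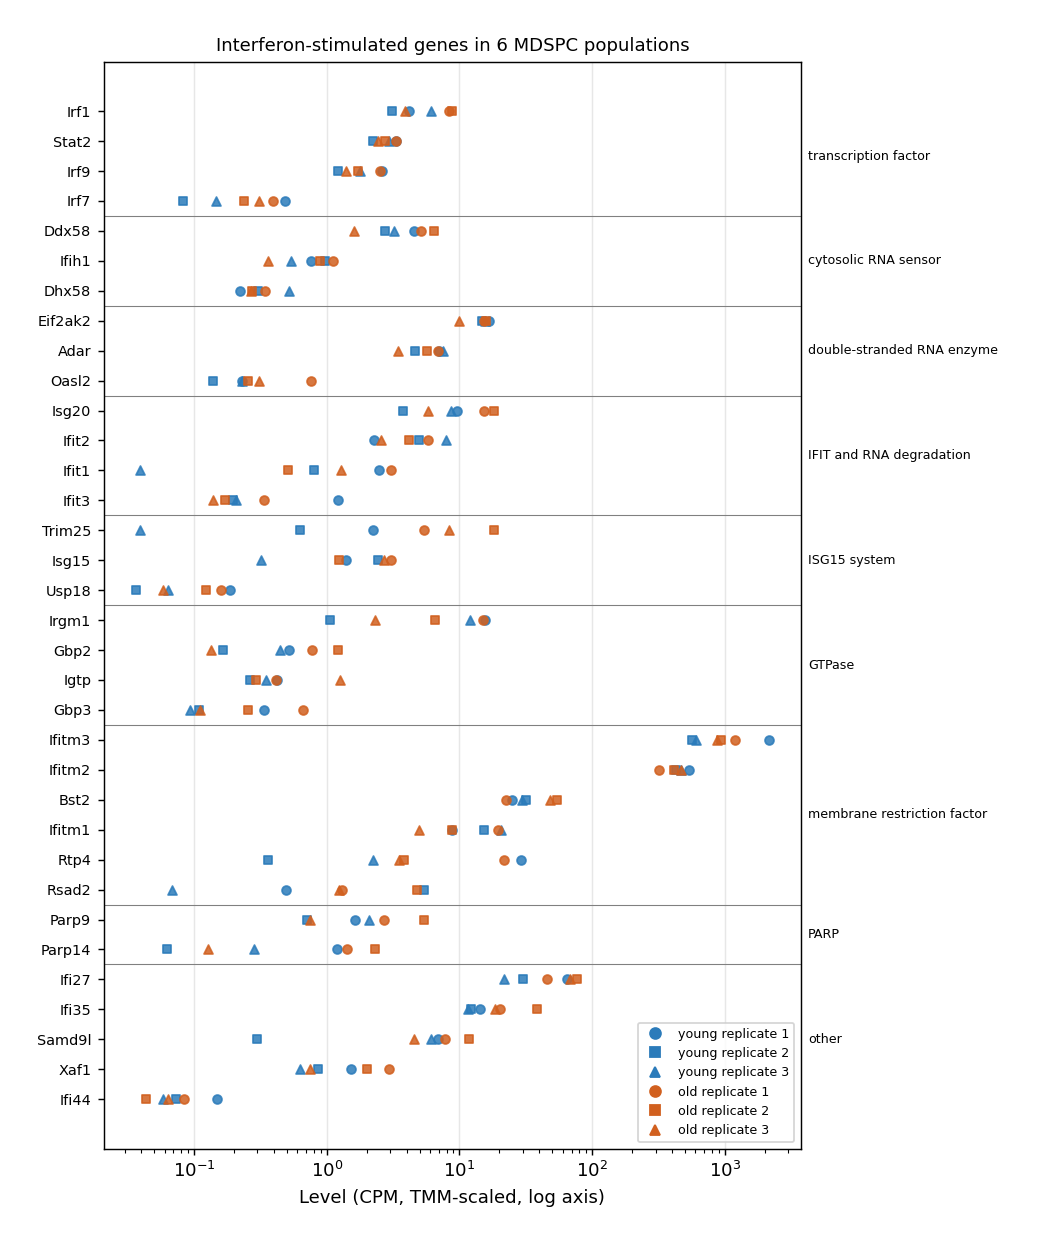
Level of each tested gene in each population (CPM, TMM-scaled, log axis), grouped by role, with young populations in blue, old in orange and the replicate given by the marker. Ifitm3 and Ifitm2 lie above the rest, and for Trim25 and Ifi35 all orange markers lie to the right of all blue ones.

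None of the 4 transcription factors separated the groups, and the means of Irf9 and Stat2 were close. Irf9 and Stat2, subunits of the factor that binds these promoters, had mean levels of 1.87 ± 0.687 CPM (SD, n = 3) and 2.82 ± 0.558 CPM in young against 1.87 ± 0.571 and 2.83 ± 0.442 CPM in old populations. Their log2 fold changes were 0.01 (SE 0.46) and 0.00 (SE 0.40), and the sign of each turned under other scalings. Irf1, an early-response activator, was at 4.16, 3.09 and 6.09 CPM in young against 8.39, 8.85 and 3.91 CPM in old populations. Old replicates 1 and 2 were above all young populations and old replicate 3 was not, with a log2 fold change of 0.65 (SE 0.47). Irf7, which amplifies interferon production, averaged 0.239 ± 0.217 and 0.313 ± 0.0782 CPM, with a log2 fold change of 0.73 (SE 0.65).

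The sensors and double-stranded RNA enzymes did not separate the groups apart from Oasl2. Ddx58, which encodes RIG-I, Ifih1, which encodes MDA5, and Dhx58, which encodes LGP2, had log2 fold changes of 0.34, -0.00 and -0.21 with SEs of 0.58 to 0.63. Eif2ak2, which encodes PKR, a kinase that stops translation, was at 16.7, 14.7 and 15.6 CPM in young against 15.2, 15.96 and 9.88 CPM in old populations. Only old replicate 3 was apart, below the other 5. Adar, an RNA editing enzyme, averaged 6.39 ± 1.57 and 5.35 ± 1.73 CPM. Oasl2, a relative of the oligoadenylate synthetases, was at 0.230, 0.140 and 0.230 CPM in young against 0.763, 0.253 and 0.307 CPM in old populations. The groups did not overlap, but the gap between old replicate 2 and the highest young population was small and the counts were low, at 26, 27 and 47 UMIs (young) against 128, 47 and 53 UMIs (old). Of the 128 UMIs of old replicate 1, 51.6% lay in the 10 cells richest in Oasl2, and 36 lay in a single cell. The log2 fold change of Oasl2 was 0.97 (SE 0.60) with an unadjusted p of 0.161 in edgeR. Oasl2 lies on chromosome 5, where the median gene of old replicate 2 stood 0.29 (log2) above the mean of the 6 populations, and with the chromosome shifts taken out the fold change was 0.83.

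The IFIT genes, whose products bind foreign RNA, and Isg20, an exonuclease, differed in sign. Ifit1 was at 2.47, 0.799 and 0.0391 CPM in young against 3.03, 0.507 and 1.29 CPM in old populations, so that the spread within each group was wider than the gap between them. Ifit3 had the lowest fold change of the 34 genes, -0.86 (SE 0.61), with 1.21 CPM in young replicate 1 and 0.139 to 0.334 CPM in the other 5. It was -0.37 without young or without old replicate 1. Ifit2 averaged 5.04 ± 2.82 and 4.19 ± 1.63 CPM. Isg20 was at 9.62, 3.73 and 8.56 CPM in young against 15.3, 18.3 and 5.84 CPM in old populations, with a log2 fold change of 0.87 (SE 0.54) that was 0.25 without old replicate 2.

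Trim25 carried the largest fold change. It encodes a ubiquitin and ISG15 ligase that also activates RIG-I, and lies on chromosome 11 at chr11:88999376-89020293 on the plus strand (GENCODE annotation of GRCm38). It was at 2.23, 0.633 and 0.0391 CPM in the young populations, from 252, 122 and 8 UMIs, and at 5.39, 18.2 and 8.37 CPM in the old ones, from 904, 3369 and 1444 UMIs. The lowest old population, replicate 1, was above the highest young one, also replicate 1, and old replicate 2 was the highest of all. The means were 0.966 ± 1.13 and 10.6 ± 6.68 CPM, and the log2 fold change was 4.13 (SE 1.54) with an unadjusted p of 0.0389 and an adjusted p of 1.00 in edgeR. DESeq2 gave the same fold change, 4.13, with an adjusted p of 0.0235. Over the other settings and left-out populations the fold change lay between 2.96 and 5.30. Old replicate 2 stood 0.35 (log2) above the mean of the 6 populations in the median gene of chromosome 11, and with each population's chromosome shift taken out the fold change was 3.89. Isg15, the ubiquitin-like modifier itself, was at 1.40, 2.44 and 0.318 CPM and 3.02, 1.25 and 2.72 CPM, with a log2 fold change of 0.72 (SE 0.85) that ran from 0.27 without young replicate 3 to 1.95 without young replicate 2, and Usp18, which removes it, at 0.0363 to 0.185 and 0.0580 to 0.161 CPM. The groups overlapped in both.

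The GTPases, which act against intracellular pathogens, were few in counts apart from Irgm1. Gbp2, Gbp3 and Igtp had log2 fold changes of 0.96, 0.89 and 0.89 with SEs of 0.60 to 0.95. With 1 population left out, the lowest values were -0.39, 0.51 and -0.060. Irgm1 was at 15.4, 1.05 and 11.9 CPM in young against 14.9, 6.59 and 2.30 CPM in old populations, and its fold change was -0.38 (SE 0.89). Young replicate 2 and old replicate 3 were the low populations, so the split did not follow age.

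The restriction factors at membranes held the most abundant genes, and these were not higher in the old populations as a group. Ifitm3, which blocks the fusion of incoming viruses, was at 2153, 567 and 605 CPM in young against 1186, 929 and 876 CPM in old populations. Young replicate 1 was the highest and the other 2 young populations the lowest, and the log2 fold change was 0.14 (SE 0.36), with the opposite sign when the gene list term was left out. Ifitm2 was at 535, 428 and 469 CPM and 317, 415 and 466 CPM, with a fold change of -0.27 (SE 0.25). Ifitm1 was at 8.82, 15.4 and 20.6 CPM and 19.6, 8.78 and 4.91 CPM, with a fold change of -0.59 (SE 0.63) that was -0.053 without old replicate 3 and -1.40 without either replicate 1. Both ran against the direction of most members. Bst2, or tetherin, which holds budding virus on the cell, was at 24.9, 31.5 and 29.7 CPM in young against 22.4, 54.2 and 48.1 CPM in old populations. Old replicates 2 and 3 were above all young populations and old replicate 1 was the lowest of the 6, with a fold change of 0.45 (SE 0.26). Rsad2, or viperin, was at 0.495, 5.44 and 0.0685 CPM and 1.29, 4.79 and 1.25 CPM, and Rtp4 at 29.0, 0.358 and 2.24 CPM and 21.5, 3.83 and 3.47 CPM. Both varied more between populations of one age than between the ages.

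Among the remaining members, Ifi35 had the steadiest difference. Ifi35, a leucine-zipper protein that partners NMI, lies on chromosome 11 at chr11:101448407-101458698 on the plus strand. It was at 14.3, 12.2 and 11.5 CPM in young against 20.3, 38.5 and 18.4 CPM in old populations. Over all cells, every old population exceeded every young one. Among cells scored in the G1 phase alone, the ages overlapped on levels without TMM scaling (described later). Old replicate 2 stood apart from the other old ones. The means were 12.6 ± 1.44 and 25.8 ± 11.1 CPM, and the log2 fold change was 1.02 (SE 0.36) with an unadjusted p of 0.0310 in edgeR. Without old replicate 2 it was 0.58, and with the chromosome shifts taken out 0.81.

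Ifi27, a small mitochondrial and nuclear-envelope protein, was at 64.7, 30.1 and 21.8 CPM in young against 45.6, 77.1 and 67.7 CPM in old populations. Young replicate 1 lay among the old populations, and the log2 fold change was 0.84 (SE 0.47). Parp14, an ADP-ribosyltransferase, was at 1.19, 0.0623 and 0.284 CPM and 1.42, 2.31 and 0.128 CPM, with a fold change of 2.00 (SE 1.38) that became -0.13 without old replicate 2. Its partner Parp9 was at 1.63, 0.711 and 2.06 CPM and 2.69, 5.36 and 0.748 CPM, with a fold change of 1.00 (SE 0.86) that became -0.18. Samd9l, a translation-repressing restriction factor, was at 6.93, 0.296 and 6.08 CPM and 7.80, 11.8 and 4.53 CPM (0.96, SE 1.07), where young replicate 2 was far below the other 5. Leaving out replicate 2 gave 0.29 (young) or 0.36 (old), and leaving out young replicate 3 gave 2.61. Xaf1 had a fold change of 0.92 (SE 0.59) and Ifi44 one of -0.48 (SE 0.57).

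**Figure D3:**
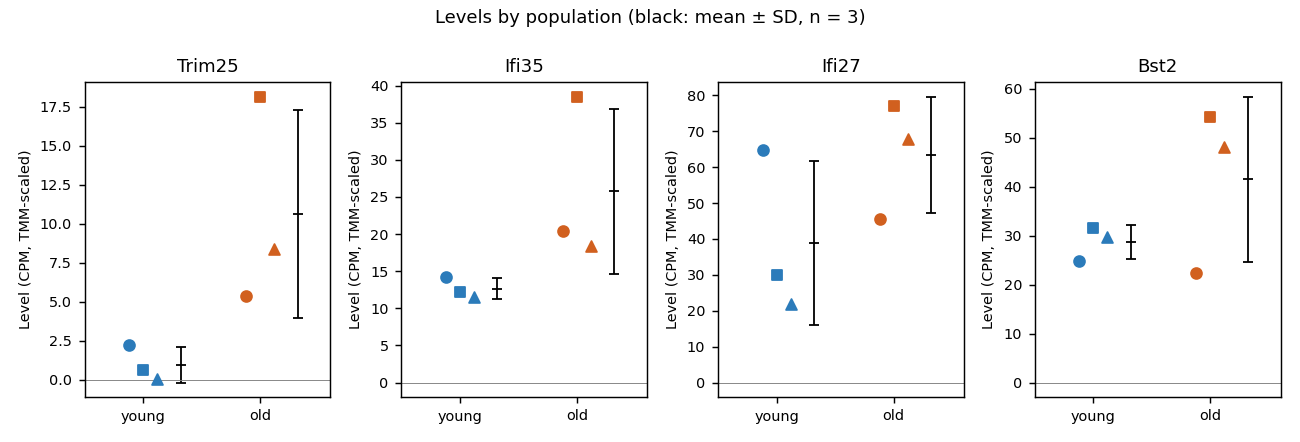
Level of Trim25, Ifi35, Ifi27 and Bst2 in each population (CPM, TMM-scaled), with circles, squares and triangles for replicates 1, 2 and 3 and the mean ± SD (n = 3) in black. The groups are separate for Trim25 and Ifi35, whereas young replicate 1 (64.7 CPM) lies among the old populations for Ifi27 and old replicate 1 (22.4 CPM) is the lowest of all for Bst2.

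Ifitm2 and Ifitm3 made up most of the summed level. All 35 genes together came to 2918, 1136 and 1237 CPM in young against 1742, 1647 and 1541 CPM in old populations, the same order as Ifitm3. The mean in old minus that in young populations was -120 CPM, and 457 CPM without young replicate 1. Without Ifitm2 and Ifitm3 the sums were 230, 141 and 164 CPM in young against 240, 303 and 199 CPM in old populations. Young replicate 1 lay above old replicate 3. Of the difference of 68.9 CPM between these means (178 ± 45.8 and 247 ± 52.4), a few genes, Ifi27, Bst2, Ifi35 and Trim25, made up 60.3 CPM and the other 29 genes 8.57 CPM, with 97.0 ± 28.4 and 106 ± 45.5 CPM in young and old. The 68.9 CPM was 41.0 CPM without old replicate 2 and 94.5 CPM without young replicate 1. The 8.57 CPM was -11.5 CPM without old replicate 1, -6.41 without young replicate 2, 3.92 without old replicate 2, 21.8 without young replicate 1 and 33.3 without old replicate 3, and the 60.3 CPM lay between 37.1 (without old replicate 2) and 84.1. These 4 genes were picked after their values were seen.

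The pattern depended on single populations. Old replicate 2 had the highest level in 11 of the 34 genes and young replicate 1 also in 11, while young replicate 2 had the lowest in 14, young replicate 3 in 8 and old replicate 3 in 7. How often each population was highest or lowest over all genes was not counted. These counts therefore cannot show whether the 34 genes differ from other genes in this. Without old replicate 2 the median fold change of the 34 genes was -0.01 and 16 were above 0. In that fit 47.2% of all genes were above 0, with a median of -0.02. With any other population left out the median of the 34 genes lay between 0.34 and 0.61. On chromosome 11, where old replicate 2 had the median shift given above, lie 7 of the 35 genes. Median shifts above 0.2 (log2) also stood on chromosome 5 in old replicate 2 (0.29, with 2 of the 35 genes) and on chromosome 6 in young replicate 3 (0.33, with 2). Chromosomes 13 and X in old replicate 2 (0.33 and 0.76) and 18 in young replicate 2 (0.23) held 0 of the 35.

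The gene list also separated the populations. In 11 of the 34 genes both populations on the shorter list were above the other 4, where 14.4% of all genes had that pattern, and in 1, Bst2, both were below, where 12.9% had it (27.3% in either direction). Rtp4 was the widest of these by ratio, at 21.5 and 29.0 CPM on the shorter list and 0.358 to 3.83 CPM on the longer one. Each age had 1 population on the shorter list and the list was a term of the fit, but the list and whatever else those 2 libraries share cannot be told apart. Within the 4 populations on the longer list, 6 of the 34 genes had an unadjusted p under 0.05 in edgeR, against 6.84% of 14600 genes, and none passed adjustment, with a lowest adjusted p of 0.722. Old was higher in 5 of these, Ifi27 (1.48, SE 0.28), Trim25 (5.30, SE 1.53), Bst2 (0.74, SE 0.22), Ifitm3 (0.62, SE 0.20) and Ifi35 (1.27, SE 0.43), and lower in Ifitm1 (-1.40, SE 0.42). In the single pair on the shorter list, old replicate 1 over young replicate 1 gave log2 ratios of 1.28 for Trim25 and 0.51 for Ifi35 in the same direction. That pair gave -0.50 for Ifi27, -0.15 for Bst2, -0.86 for Ifitm3 and 1.15 for Ifitm1, in the opposite direction. It has no replicates and no test.

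The share of cells with a UMI was taken from cells thinned by random draws to a depth of 5000 UMIs. The Wilson 95% intervals given cover counting error only. No cell class lacking these genes was defined to set the level of free RNA. Ifitm3 was found in 88.7% to 97.3% of cells and Ifitm2 in 79.3% to 89.9%. Trim25 was found in 1.02% (0.825% to 1.26%), 0.263% (0.182% to 0.380%) and 0.00% of cells of the young populations. The last is 0 of 10631 cells, which allows a share of up to 0.0282% with a UMI at this thinned depth and sets no limit on cells that express the gene. In the old ones it was in 2.71% (2.40% to 3.04%), 9.28% (8.69% to 9.92%) and 3.71% (3.38% to 4.06%). Ifi35 was found in 5.52%, 5.92% and 5.86% of young and 10.2%, 18.1% and 8.18% of old cells. Unthinned, Trim25 was in 2.81%, 1.05% and 0.0649% of young and 7.66%, 30.7% and 10.4% of old cells. Both genes were named for not overlapping in CPM of the same cells, and their shares did not overlap either. The only other member with no overlap at this depth was Oasl2, so that 3 of the 34 had old higher, where 4.64% of all genes did, and 0 had old lower, where 1.02% did. Oasl2 was at 0.0470% to 0.0941% and 0.107% to 0.303%. Unthinned, Oasl2 overlapped, at 0.265%, 0.222% and 0.408% of young and 0.660%, 0.470% and 0.351% of old cells, and it also overlapped at 2000 UMIs.

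For most members, the share of cells with a UMI was close to that expected from depth alone. The share of cells with a UMI was set against the share expected if the gene's UMIs fell on cells in proportion to each cell's total. Over the 166 pairs of gene and population with 50 or more UMIs, 137 had a ratio of 0.85 or more. A ratio near 1 does not show even expression. Genes with few UMIs, or found in nearly all cells, give it under many spreads. Ifitm1 had ratios from 0.57 to 0.90 across populations. The ratio was under 0.5 in 12 pairs, of which Isg15 and Ifit1 had 5 each, Ifit3 had 1 (young replicate 1) and Rsad2 had 1 (old replicate 1). Rsad2 was near an even spread in young and old replicate 2, at 0.90 and 0.89. For Isg15 it was between 0.31 and 0.37 in 5 populations and 0.79 in young replicate 3. The 10 cells richest in Isg15 held 32.3% to 59.3% of its UMIs across the 6 populations. For Trim25 the 10 richest cells held 1.31% to 14.8% in the 5 populations with over 100 UMIs, and for Ifi35 0.966% to 2.04% in all 6.

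**Figure D4:**
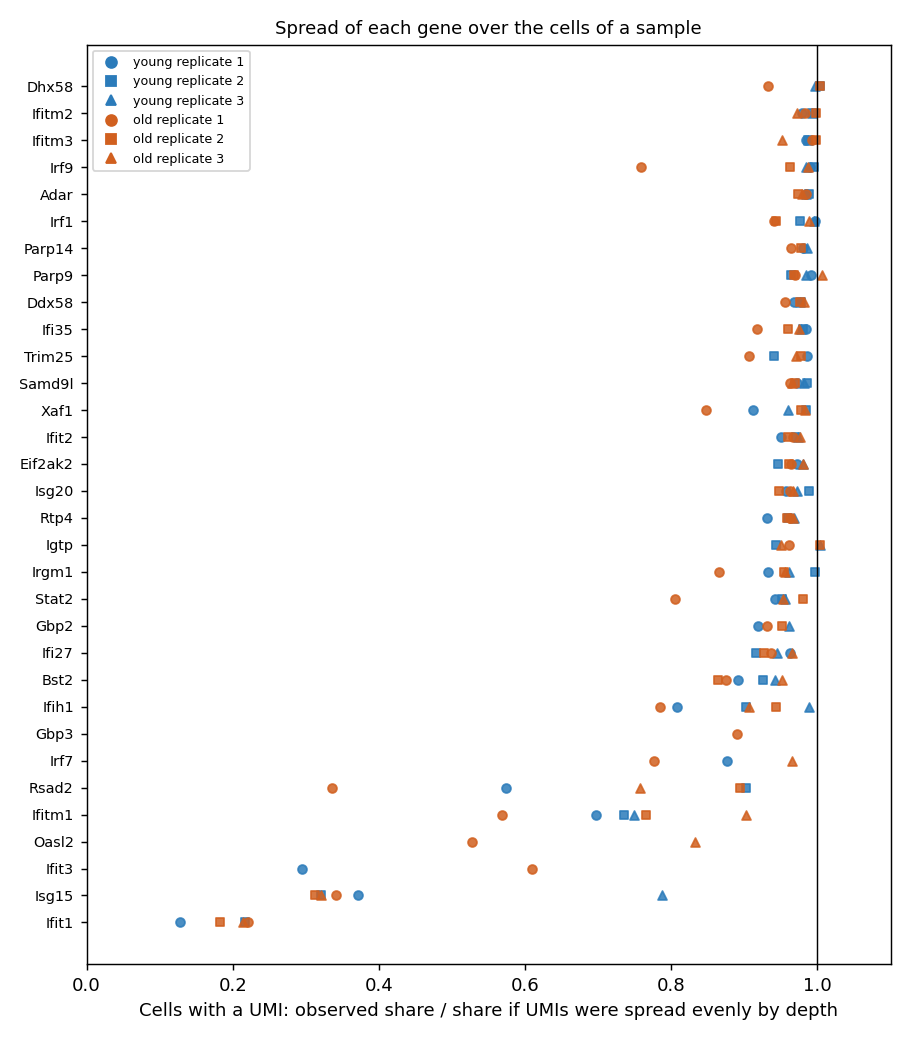
Ratio of the observed share of cells with a UMI to the share expected from an even spread by depth, for each gene and population with 50 or more UMIs (young in blue, old in orange). Most points lie at 0.85 or above, while Isg15 and Ifit1 lie under 0.5 in young and old populations alike, apart from Isg15 in young replicate 3 at 0.79.

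Cells with Isg15 held Ifit1 far more often than other cells did in 5 of the 6 populations. Among cells with an Isg15 UMI, Ifit1, whose UMIs were also concentrated, was found in 32.1% (17.9% to 50.7%), 20.0% (12.3% to 30.8%) and 0 of 14 cells of the young populations, the last allowing up to 21.4%. In the old populations it was found in 34.4% (25.5% to 44.5%), 30.8% (16.5% to 49.99%) and 22.4% (14.1% to 33.7%). In the other cells Ifit1 was found in 0.0188% to 0.275%. Such cells were rare at every age, with Isg15 in 0.332%, 0.658% and 0.132% of young and 0.939%, 0.306% and 0.551% of old cells, and the ages overlapped. Trim25 was found in 2 of 28, 1 of 70 and 0 of 14 cells with Isg15 in the young populations. In the old populations it was in 10.8%, 11.5% and 2.99% of cells with Isg15, against 2.63%, 9.28% and 3.71% of the other cells. Trim25 and Ifi35 were together in 4 of 86 and 3 of 28 Trim25-positive cells of young replicates 1 and 2. In the old populations they were together in 37 of 268, 141 of 790 and 28 of 451 such cells. These shares were 13.8%, 17.8% and 6.21%, beside Ifi35 in 10.1%, 18.1% and 8.25% of the other cells.

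**Figure D5:**
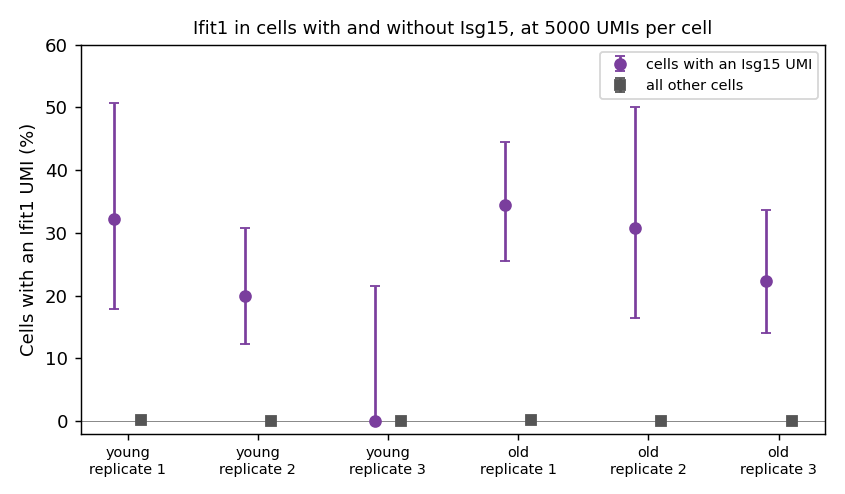
Share of cells with an Ifit1 UMI among cells with an Isg15 UMI (circles) and among all other cells (squares), at 5000 UMIs per cell, with Wilson 95% intervals for counting error. In 5 of the 6 populations the share is 20.0% to 34.4% in cells with Isg15, and in young replicate 3 none of 14 such cells had Ifit1.

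Cell-cycle phase was scored per cell from S and G2/M genes, and the phases differed widely between populations, with 20.5% to 48.1% of young and 30.1% to 63.4% of old cells in G1. Old replicate 2 had the most G1 cells. Ifi27 had its highest level in G1 in all 6 populations, for example 97.4 CPM in G1, 55.3 in S and 62.9 in G2/M in old replicate 2 and 38.3, 23.8 and 24.5 CPM in young replicate 2, unscaled and after thinning. In the 3 old populations Trim25 was also highest in G1, at 7.31, 21.2 and 9.52 CPM, with 5.18 to 17.2 CPM in the other phases. Within each phase every old population was above every young one for Trim25, whose highest young value in any phase was 2.31 CPM. For Ifi35 the unscaled levels of the ages overlapped in G1, at 18.1 CPM in young replicate 3 and 17.7 CPM in old replicate 3. Dividing by the TMM factors of these populations, 1.08 and 0.944, reverses the order of this pair, so the overlap rests on the missing scaling. The ages did not overlap for Ifi35 in S or in G2/M. The part of phase in the difference between ages was not tested.

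Upstream of these genes the interferons themselves were nearly absent. The 21 type I, II and III ligand genes had 99 UMIs in all 61673 cells, 38 of them outside Ifnz, and Ifnb1 had 2. Of the 6 receptor subunits, none passed the test. Ifnar1, a subunit of the type I receptor, was at 14.3, 14.1 and 13.9 CPM in young against 12.4, 13.3 and 11.1 CPM in old populations, lower in all old ones by a log2 fold change of -0.21 (SE 0.21). Ifngr1, a subunit of the type II receptor, was at 15.1, 12.4 and 14.6 CPM and 15.5, 17.8 and 17.3 CPM, higher in all old ones by 0.26 (SE 0.21).

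Other genes of the pathway, from lists of ligands, receptors, signalling, negative regulators, nucleic acid sensors and further interferon-stimulated genes, also held none that passed. Of 111 listed, 77 were tested, 45 had a fold change above 0 (58.4%), and the median was 0.08. In 3 of the 77 all old populations were above all young ones and in 1 below, beside the 3.63% and 2.42% of all genes. Of the 42 further interferon-stimulated genes tested, 29 were above 0 with a median of 0.41. The 9 negative regulators had 2 above 0 and a median of -0.15. Aim2, a sensor of cytosolic DNA, was the 1 gene of the 77 with an unadjusted p under 0.05 in edgeR (0.0110), at 0.556, 0.0934 and 0.0831 CPM in young against 5.01, 0.485 and 7.50 CPM in old populations, which overlapped. Apobec3, a cytidine deaminase, was at 0.0265, 3.76 and 0.132 CPM and 14.2, 14.7 and 13.8 CPM with no overlap and a fold change of 4.22 (SE 1.81). Zbp1, a nucleic acid sensor, also had no overlap, at 0.0363 to 0.106 and 0.143 to 0.286 CPM.

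The genes beside Trim25 and Ifi35, which both lie on chromosome 11, were examined after the values of these 2 genes were seen. Of the 3 tested genes on each side of Trim25, 1, Nog, had no overlap between the ages, where 6.05% of all genes had none in either direction. Nog, which encodes the BMP antagonist noggin, was at 0.106, 0.00519 and 0.166 CPM in young against 0.811, 10.7 and 2.48 CPM in old populations. The nearest neighbours, Coil and Dgke, had fold changes of -0.15 and -0.22. Around Ifi35 all 6 overlapped, with fold changes of -0.25 to 0.74. In the annotation, 14 of the 35 genes overlap another gene, 5 of them on the same strand. These 5 are Irf9 with Rnf31, Igtp with Irgm2, Rtp4 with Gm45338, Ifitm2 with Gm45717 and Parp14 with Gm49730. Gm45338, Gm45717 and Gm49730 are not on both gene lists. Reads in the shared stretches cannot be assigned to 1 gene by position alone, and how they were counted was not examined. Ifi35 overlaps Gm11626 on the opposite strand, and whether strand was used in counting is not given in the sources used here.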

How the data were processed

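Single-cell 3′ RNA libraries of 6 MDSPC populations, 3 young and 3 old, were analysed. The authors deposited raw UMI counts for every gene and barcode, and per the file headers the software was Cell Ranger 7.0.0 (young and old replicate 1, 21849 features) or 7.2.0 (32285 features). Genome build mm10 and Seurat 5.134 are named in the submitters' processing notes, and the annotation and intron setting are not given in the sources used here. The deposited barcodes had at least 500 UMIs. Of 62849 barcodes, 61673 were kept (1000 or more UMIs, 500 or more genes, under 15% mitochondrial UMIs), and the median mitochondrial share was 2.36% to 3.10%. No doublet caller was run, so doublets remained. An alternative left out the deepest cells, 0.8% of barcodes per 1000.

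Counts of the 21485 shared genes, 98.5% to 99.9% of UMIs, were summed per population. The two-sided quasi-likelihood test of edgeR 4.0.16 (R 4.3.3) was used with robust dispersions, filterByExpr, TMM factors of 0.848 to 1.11, terms for gene list and group, and Benjamini-Hochberg adjustment over 14512 genes. The SE was derived as the absolute fold change over the square root of the F value. The common biological coefficient of variation was 0.563. Alternatives were DESeq2 1.42.0, limma 3.58.1 (voom), other scalings, filters and cells, chromosome offsets, a replicate block and leaving out each population. Cells were thinned to 5000 UMIs in Python 3.11.15 (149 to 373 cells per population left out as shallower) and phases were scored with scanpy 1.11.5.

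Named genes were those without overlap, those with an unadjusted p under 0.05, the 6 of highest level and the 6 of largest fold change. Others are given by role, and any singled out beyond this were chosen after their values were seen. Most genes of the pathway lists are given only by counts, and 1 result among them is not reported here. Members and lists were chosen with earlier results of these data known. The labels call the populations biological replicates without saying how many mice each came from, so p-values measure the spread between these populations. Sequences are from RefSeq (GRCm38.p6) and gene positions from GENCODE M21. For the 7 promoters printed, bases after the start matched a GENCODE transcript of the gene.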

Additional observations from a re-analysis of the deposited data

Results flagged for a closer look

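Further interferon-stimulated genes were present on the shorter gene list alone, so that only young replicate 1 and old replicate 1 have values and no comparison of the ages was made. Each of the following exceeded the 3 counts that a count of 0 allows. Mx1, a dynamin-like antiviral GTPase, had 5 counts in old replicate 1 and 0 in young replicate 1. Mx2 had 5 counts in young replicate 1 and 12 in old replicate 1. Oas1b, an oligoadenylate synthetase relative, had 8 counts in young replicate 1 and 6 in old replicate 1.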

How the results depend on the processing

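The median fold change of the 34 genes was between 0.34 and 0.72 (log2) in every alternative except the one without old replicate 2, where it was -0.0095, and the leave-one-out range was -0.0095 to 0.61. The number of genes called among all tested was 1 in the reported fit, 219 with DESeq2, 2 with library totals alone as scaling, 0 without the gene list term, 0 on the longer list alone, 0 with limma-voom, and 0 to 3 with 1 population left out. With 0 calls, 501, 998 and 600 genes had an unadjusted p under 0.05 without the list term, on the longer list alone and with limma-voom. Scaling by library totals split such genes into 462 higher and 62 lower in old, against 364 and 148 in the reported fit. Leaving out young or old replicate 1 also leaves the list term with 1 population, so it equals the longer list alone in substance. Replicates of the same number correlated at 0.38, 0.22 and -0.08, and those of different numbers at -0.41 to 0.28. With 3 populations per age, of which both replicates 1 share a gene list, these values cannot decide whether the numbers pair the populations. With a replicate block 1 gene was called and the median was 0.61.

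Of the alternative fold changes of single members, 578 kept direction and call, 33 turned sign and 1 gained a call (Trim25 with DESeq2, 4.13). Values near 0 turned most. Irf9 was -0.00011 with DESeq2, -3.3e-06 with DESeq2's size factors in edgeR, -0.00071 without the list term and -0.0066 under the stricter cell filter. Stat2 was -0.0071 with DESeq2, -0.0071 with its size factors and -0.0021 without the low-count filter. Ifih1 was 0.11 with library totals, 0.056 without the list term and 0.0092 with chromosome offsets. Irgm1 was 0.040 with the replicate block and 0.033 with limma-voom, and Ifitm3 and Rtp4 were -0.15 and -0.13 without the list term. With 1 population left out, the ranges that crossed 0 were -0.16 to 0.17 for Irf9, -0.12 to 0.12 for Stat2, -0.35 to 0.37 for Ifih1, -0.43 to 0.72 for Ddx58, -0.61 to 0.17 for Dhx58, -0.93 to 0.27 for Ifit2, -0.39 to 1.42 for Gbp2, -0.060 to 1.34 for Igtp, -0.89 to 1.11 for Irgm1, -0.075 to 0.62 for Ifitm3, -0.0094 to 3.51 for Rsad2, -0.18 to 1.49 for Parp9 and -0.13 to 2.81 for Parp14. Ranges that kept their sign but moved by over 1.5 times include 0.32 to 1.03 for Irf1, 0.35 to 1.24 for Irf7, 0.22 to 2.45 for Ifit1, 0.60 to 1.31 for Oasl2, 0.19 to 1.57 for Rtp4, 0.32 to 0.74 for Bst2, 0.47 to 1.48 for Ifi27, 0.44 to 1.23 for Xaf1, 0.51 to 1.18 for Gbp3, 0.025 to 0.86 for Usp18, -1.09 to -0.37 for Ifit3, -0.71 to -0.29 for Ifi44, -0.47 to -0.017 for Adar, -0.41 to -0.015 for Eif2ak2 and -0.39 to -0.026 for Ifitm2. Where a population was left out, fewer samples entered the fit, and otherwise the cause was not tested. Depth may limit the 12 genes that averaged 1 CPM or less, which held 2 (Oas1a) to 895 (Parp14) counts in all, and this was not tested.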
